A study of Homo sapiens with 5 samples.

Results

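The genes described here are named as subunits of the nuclear RNA polymerases I, II and III. They were all genes whose symbol in the count files starts with POLR1, POLR2 or POLR3 followed by a letter, leaving out antisense transcripts, which gave 31 of the 26485 genes counted. The 30 described here are 5 with the prefix POLR1, 16 with POLR2 and 9 with POLR3. Expression was measured in the human colorectal cancer line SW480, an established cell line, by sequencing the 3' ends of polyadenylated RNA (QuantSeq). All cells expressed dCas9-KRAB, a Cas9 that cannot cut DNA fused to a repressor domain, so that a guide RNA lowers transcription at the site it binds. The 3 knockdown libraries came from cells transduced with guides against AKAP12, and the 2 control libraries from cells transduced with control guides; all RNA was taken 48 hours after seeding. Titles and a label field instead name the groups shAKAP12 and shControl, so the labels give 2 silencing methods for the same samples.

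RNA polymerase I transcribes the large ribosomal RNA precursor, RNA polymerase II transcribes messenger RNAs and many non-coding RNAs, and RNA polymerase III transcribes transfer RNAs, 5S ribosomal RNA and other short RNAs. The enzymes share a common architecture. Each has its own pair of large catalytic subunits, while one group of small subunits sits in all the enzymes and another pair, encoded by POLR1C and POLR1D, forms the assembly platform of polymerases I and III. Polymerase II has its own platform, encoded by POLR2C and POLR2J. The subunits were therefore grouped by the enzyme that holds them: 3 in polymerase I only, 2 in polymerases I and III, 5 in all 3 enzymes, 11 in polymerase II only (among them 3 gene copies of POLR2J and the accessory subunit gene POLR2M) and 9 in polymerase III only.

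Library totals were 6890868 to 9311026 counts in the knockdown and 4935096 and 8670141 in controls 1 and 2. AKAP12, the targeted scaffold protein gene (chromosome 6, 151239999 to 151358561, plus strand, hg38), had 1159, 1063 and 1008 CPM (counts scaled to the library total, with TMM factors) in knockdown 1, 2 and 3, against 2870 and 1550 CPM in controls 1 and 2. All knockdown libraries lay below both controls, with a log2 fold change of -1.04 (standard error, SE, 0.31, adjusted p = 0.0513 by edgeR, and 0.011 to 0.298 over the alternative settings that kept every library), which was -0.52 without control 1 and -1.42 without control 2. The controls stood apart from each other. Across the 30 subunit genes, which are not independent replicates, Pearson's r of log2 CPM was 0.988 to 0.994 between knockdown libraries and 0.836 between the controls. It was 0.682 to 0.696 between control 1 and the knockdown libraries, and 0.907 to 0.923 between control 2 and the knockdown libraries. Reads assigned to TERT made up 0.0451 to 0.249% of counts in the knockdown, against 7.43% and 3.54% in the controls. Short RNA genes made up 0.642 to 0.928% of counts in the knockdown, against 8.64% and 1.73% in controls 1 and 2. Of 6 stromal marker genes, 6 had reads in every library, with summed levels of 411.8 to 485.5 CPM in the knockdown and 327.8 and 423.3 CPM in the controls, and the 5 blood cell markers also all had reads, at 70.1 to 85.7 CPM in the knockdown and 53.4 and 87.1 CPM in the controls. The 8 colorectal epithelial markers summed to 1340 to 1582 CPM in the knockdown and to 1021 and 1519 CPM in the controls, with LGR5 at 0 in knockdown 1 and in both controls. The 3 endothelial markers summed to 45.0 to 55.6 CPM in the knockdown and to 47.3 and 70.3 CPM in the controls, with CDH5 at 0 in control 1. The part of any of these differences in the results on polymerase genes was not tested.

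Individual polymerase subunit genes were called in both directions between knockdown and control, as were genes at large. Each of the 3 enzymes held subunits called higher and subunits called lower. Among the 30 described genes of the POLR series, those called higher in polymerases I and III were all shared between enzymes. ZNRD1, a polymerase I subunit under another symbol, was also called higher (log2 fold change 2.72, edgeR adjusted p = 0.0385), with its limits given below. All 30 subunit genes described had enough reads to be tested. By the quasi-likelihood test of edgeR at an adjusted p under 0.05, 6 were higher in the knockdown (POLR1C, POLR1D, POLR2H, POLR2K, POLR2D and POLR2M) and 4 were lower (POLR1E, POLR2L, POLR2I and POLR3D). This was 33.3% of the subunit genes, beside 22.6% of all 14536 genes tested (11.2% higher and 11.4% lower). The changes called ranged in size from 1.74-fold to 4.10-fold. The median log2 fold change of the subunit genes was 0.083, which turned to -0.044 with GC offsets (which remove the trend of counts with GC content), beside 0.036 and -0.12 for all genes tested. In 11 subunit genes every knockdown library lay above both controls and in 8 every knockdown library lay below both, beside 31.6% and 28.5% of all genes tested (60.1% in either direction). By DESeq2, 7 subunit genes were higher and 6 lower, beside 31.9% of all genes with an adjusted p. Without any 1 of the knockdown libraries no gene was called by edgeR. In each of these fits 11 of the 30 subunit genes had an unadjusted p under 0.05, beside 3774 to 4109 of the 14215 to 14324 genes tested. RNA was read from whole cultures, so fewer cells of a kind and less RNA per cell cannot be told apart.

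**Figure D1:**
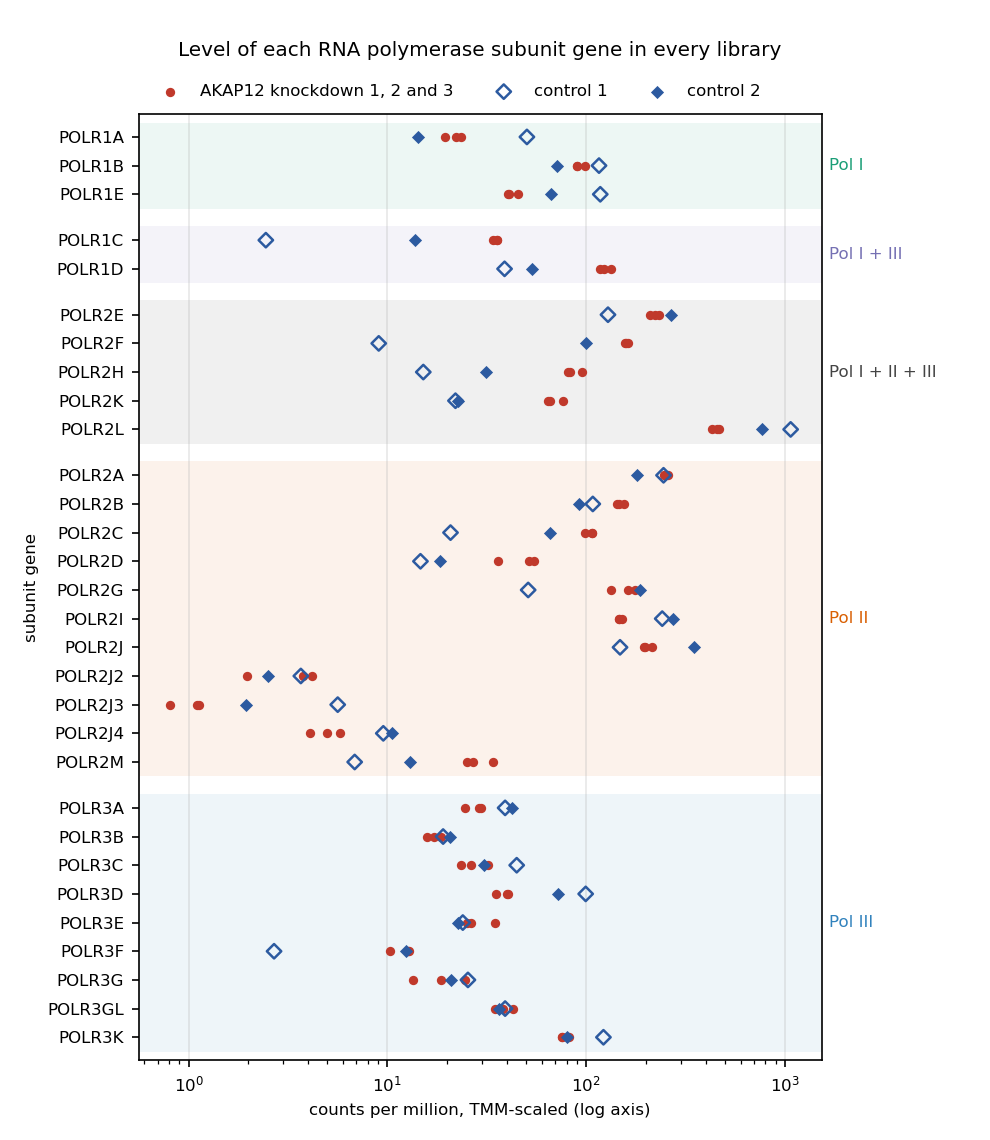
Level of each of the 30 subunit genes in CPM (TMM-scaled, log axis) in the 3 knockdown libraries (red) and in control 1 and control 2 (open and filled blue). The knockdown libraries lie close together for most genes, whereas the controls differ more than 2-fold in 10 genes.

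The controls were more than 2-fold apart in 10 of the 30 subunit genes and in 33.2% of all genes tested, and the knockdown libraries in 1 subunit gene (POLR2J2) and in 10.6% of all genes tested. Control 1 was the higher of the controls in 14 subunit genes and the lower in 16. A fit without control 1 and a fit without control 2 gave opposite signs for 8 subunit genes (POLR1A, POLR1B, POLR2E, POLR2G, POLR2J, POLR2J2, POLR3F and POLR3GL), none of which was called, and gave the same sign for the 10 that were called. In these fits the remaining control is assumed to vary like the knockdown libraries, so their values are given below without p-values.

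**Figure D2:**
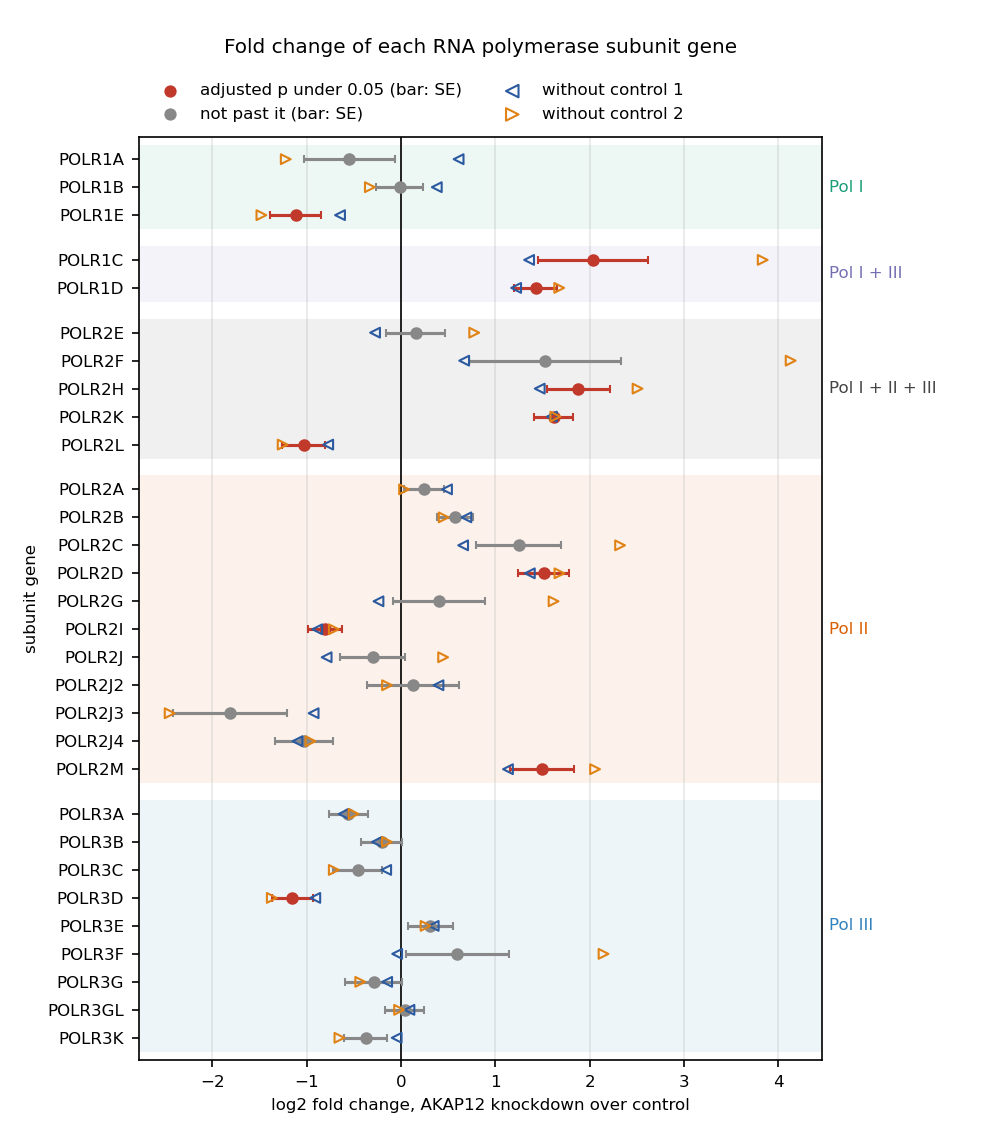
Log2 fold change of each subunit gene, knockdown over control, from all libraries (filled circles with the standard error, red where the edgeR adjusted p was under 0.05), and from fits without control 1 or without control 2 (open triangles). POLR2K gives 1.62, 1.6 and 1.64 in the 3 fits, while POLR2F gives 1.52, 0.67 and 4.13.

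The sequences just before the genes are shown for 5 of the 6 called subunits that have an entry in the RefSeq promoter table, so that the start regions of genes that moved in opposite directions can be read side by side. The windows hold 130 bases upstream of the gene (RefSeq, GRCh38.p14), written along the strand of the gene, with capitals marking the SP1 core GGGCGG and the ETS core CCGGAAG on either strand (where the cores overlap or stand on the opposite strand, all their bases are in capitals). POLR2L was lower in the knockdown and the other 4 genes were higher. The entry of POLR2M, also higher, does not reach 130 bases before the gene's start in the count files, so its window is not shown. The windows lie at chr6:43516909-43517038 (plus strand) for POLR1C, chr13:27620613-27620742 (plus strand) for POLR1D, chr3:184361580-184361709 (plus strand) for POLR2H, chr2:127858156-127858285 (minus strand) for POLR2D and chr11:842530-842659 (minus strand) for POLR2L.
POLR1C: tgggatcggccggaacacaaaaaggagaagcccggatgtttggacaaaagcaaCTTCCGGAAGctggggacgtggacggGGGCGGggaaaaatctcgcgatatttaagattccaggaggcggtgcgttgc
POLR1D: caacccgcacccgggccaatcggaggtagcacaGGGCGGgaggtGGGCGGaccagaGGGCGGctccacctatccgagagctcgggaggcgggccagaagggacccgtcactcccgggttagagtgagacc
POLR2H: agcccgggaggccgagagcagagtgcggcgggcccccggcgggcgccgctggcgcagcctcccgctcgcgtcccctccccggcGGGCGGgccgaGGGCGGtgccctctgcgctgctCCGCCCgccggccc
POLR2D: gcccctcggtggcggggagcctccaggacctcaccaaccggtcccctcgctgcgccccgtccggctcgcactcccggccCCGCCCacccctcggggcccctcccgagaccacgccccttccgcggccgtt
POLR2L: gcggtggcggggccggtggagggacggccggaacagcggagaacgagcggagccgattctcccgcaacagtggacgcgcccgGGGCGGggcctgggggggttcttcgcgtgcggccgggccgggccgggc

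Every one of these 5 windows holds at least 1 SP1 core, and POLR1C alone among them holds the ETS core, as 2 overlapping copies on opposite strands. Promoter entries of 300 bases (250 before the start and 50 after it) matched 21 of the 30 subunit genes. The SP1 core was in 16 of these 21 entries (76.2%), beside 45.0% of all 35116 entries and 64.0% of the 15597 entries of genes tested here. The ETS core was in 9 (42.9%), in POLR1B, POLR1C, POLR2C, POLR2D, POLR2F, POLR2J2, POLR2M, POLR3A and POLR3C, beside 10.3% of all entries and 15.6% of those of tested genes. The palindromic NRF1 site was found in POLR2F only (4.76%, beside 1.24% of all entries and 1.80% of those of tested genes), and a TATAAA box in POLR2M only (4.76%, beside 11.5% and 6.67%). Both strands were searched, and a match only says that these letters are present. The ETS core was in the entries of 3 of the 6 called subunits that have one (POLR1C, POLR2D and POLR2M) and in those of 6 of the 15 not called. All 3 were higher in the knockdown, as were 5 of the 6 called subunits with an entry.

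Both genes of the platform of polymerases I and III were higher in the knockdown. POLR1C encodes the larger platform subunit (chromosome 6, 43517039 to 43521508, plus strand, hg38) and POLR1D the smaller (chromosome 13, 27620743 to 27667422, plus strand). POLR1C had 35.8, 34.2 and 35.8 CPM in the knockdown libraries, against 2.45 and 13.8 CPM in controls 1 and 2. The knockdown libraries were nearly equal and all above the controls, which were far apart. Its level was 4.10-fold higher in the knockdown (log2 fold change 2.04, SE 0.58, adjusted p = 0.0469 by edgeR), and the log2 fold change was 1.36 without control 1 and 3.83 without control 2. The adjusted p was the highest of the 10 called, and it was 0.0657 under library size scaling (without TMM factors), 0.0512 with GC offsets and 0.00269 to 0.0749 over all alternatives that kept every library. POLR1D had 123, 118 and 134 CPM in the knockdown libraries, against 38.9 and 53.7 CPM in the controls. The groups were well separated and the controls close to each other, and the level was 2.69-fold higher in the knockdown (log2 fold change 1.43, SE 0.22, edgeR adjusted p = 0.0163).

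Of the 5 subunits common to all 3 enzymes, 2 were higher in the knockdown, 1 was lower and 2 were not called. POLR2K encodes a small zinc-binding subunit (chromosome 8, 100150611 to 100154002, plus strand, hg38), and it had 64.5, 65.8 and 76.2 CPM in the knockdown libraries, against 22 and 22.7 CPM in the controls. It had the smallest p of the subunit genes, the groups did not overlap and the controls agreed closely: the level was 3.07-fold higher in the knockdown (log2 fold change 1.62, SE 0.21, edgeR adjusted p = 0.0131). POLR2H (chromosome 3, 184361714 to 184368595, plus strand) encodes another small common subunit, and its level was 83.4, 81.0 and 95.8 CPM in the knockdown libraries, against 15.2 and 31.3 CPM in controls 1 and 2. Every knockdown library was far above both controls, with a log2 fold change of 1.88 (SE 0.33, adjusted p = 0.019 by edgeR), which was 1.47 without control 1 and 2.51 without control 2.

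POLR2L, the other small zinc-binding subunit of all the enzymes (chromosome 11, 839721 to 842529, minus strand, hg38), went the other way. Its level was 454, 430 and 468 CPM in the knockdown libraries, against 1072 and 770 CPM in controls 1 and 2. Both controls lay well above every knockdown library, and the level was 2.04-fold lower in the knockdown (log2 fold change -1.03, SE 0.23, edgeR adjusted p = 0.0267), with -0.77 without control 1 and -1.25 without control 2. POLR2F had 157, 163 and 158 CPM in the knockdown libraries, against 9.06 and 100 CPM in controls 1 and 2. The knockdown libraries were above both controls but the controls differed so widely that the log2 fold change of 1.52 (SE 0.80) was not called (edgeR adjusted p = 0.201); it was 0.67 without control 1 and 4.13 without control 2. POLR2E, at 234, 222 and 209 CPM in the knockdown libraries, against 129 and 269 CPM in controls 1 and 2, lay between the controls. HMHA1, on the opposite strand, shares 1253 of its 2866 exonic bases, among them all of the last 500. Reads there were counted for both genes, and HMHA1 in total had 20.5, 29.9 and 26.9 CPM in the knockdown libraries, against 54.6 and 19.6 CPM in controls 1 and 2, so most reads of POLR2E lay outside the shared bases.

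Among the genes of the POLR series found only in polymerase I, 1 of 3 was called. POLR1E encodes a subunit of the dimer that binds the core of polymerase I and takes part in initiation (chromosome 9, 37485935 to 37503697, plus strand, hg38). It had 45.7, 40.8 and 40.7 CPM in the knockdown libraries, against 118 and 66.5 CPM in controls 1 and 2. All knockdown libraries were below both controls, and the level was 2.17-fold lower in the knockdown (log2 fold change -1.12, SE 0.27, edgeR adjusted p = 0.0326), with -0.65 without control 1 and -1.48 without control 2. The largest subunit gene, POLR1A, had 19.6, 23.4 and 22.3 CPM in the knockdown libraries, against 50.5 and 14.2 CPM in controls 1 and 2. The knockdown libraries lay between the controls, and the sign of the fold change rested on which control was used: it was -0.55 with both (SE 0.48, edgeR adjusted p = 0.424), 0.61 without control 1 and -1.22 without control 2. POLR1B, the second largest subunit gene, had 90.3, 89.9 and 98.5 CPM in the knockdown libraries, against 116 and 71.5 CPM in the controls, again between them, with a log2 fold change of -0.01 (adjusted p = 0.976 by edgeR), which was 0.38 without control 1, -0.33 without control 2 and 0.23 under library size scaling (without TMM factors).

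Of the 11 genes of polymerase II only, POLR2D and POLR2M were higher in the knockdown and POLR2I was lower. The largest subunit gene, POLR2A, whose product carries the C-terminal repeat domain that is phosphorylated during transcription, had 250, 259 and 247 CPM in the knockdown libraries, against 246 and 180 CPM in controls 1 and 2. The lowest knockdown library was barely above control 1, and the log2 fold change was 0.24 (SE 0.21, edgeR adjusted p = 0.42), with 0.49 without control 1 and 0.032 without control 2. POLR2B, the second largest subunit gene, had 156, 143 and 146 CPM in the knockdown libraries, against 108 and 92 CPM in the controls. The groups did not overlap, and the log2 fold change of 0.57 (SE 0.19) had an edgeR adjusted p of 0.0713. This value was 0.0325 under library size scaling and 0.0325 to 0.37 over the alternatives that kept every library. POLR2B shares 92 exonic bases at its 3' end with IGFBP7 on the opposite strand. IGFBP7 was listed at 248, 268 and 262 CPM in the knockdown libraries, against 118 and 146 CPM in controls 1 and 2. It was called higher (log2 fold change 0.97, edgeR adjusted p = 0.0239). Reads over the shared bases were counted for both genes, and their part in the POLR2B value was not tested.

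POLR2D encodes one of the 2 subunits of the stalk, which binds the emerging RNA (chromosome 2, 127846266 to 127858155, minus strand, hg38), and POLR2G encodes the other. POLR2D had 36.2, 51.4 and 54.6 CPM in the knockdown libraries, against 14.7 and 18.4 CPM in the controls. Knockdown 1 was the lowest of its group and still well above both controls, and the level was 2.85-fold higher in the knockdown (log2 fold change 1.51, SE 0.27, edgeR adjusted p = 0.0198). POLR2G had 177, 162 and 133 CPM in the knockdown libraries, against 51.2 and 186 CPM in controls 1 and 2, so that the groups overlapped, and its log2 fold change was 0.40 (SE 0.49, edgeR adjusted p = 0.568). It was -0.24 without control 1 and 1.62 without control 2.

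POLR2I encodes a small zinc-binding subunit at the jaw of the enzyme that takes part in RNA cleavage and proofreading (chromosome 19, 36113709 to 36115304, minus strand, hg38). It had 147, 151 and 147 CPM in the knockdown libraries, against 242 and 275 CPM in the controls. Both groups were tight and apart, and the level was 1.74-fold lower in the knockdown (log2 fold change -0.80, SE 0.18, edgeR adjusted p = 0.0279). Under library size scaling, which shifted the median of all genes from 0.04 to 0.23, it was -0.60 with an adjusted p of 0.083, and the adjusted p ran from 0.000777 to 0.244 over the alternatives that kept every library. TBCB, on the opposite strand, shares 319 of the 872 exonic bases of POLR2I but none of the last 500, and OVOL3 shares 3.

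POLR2M encodes a subunit of a form of polymerase II that needs Mediator for activated transcription (chromosome 15, 57706521 to 57717557, plus strand, hg38). It had 25.1, 34.0 and 27.2 CPM in the knockdown libraries, against 6.86 and 13.1 CPM in controls 1 and 2. Every knockdown library lay above both controls, with a log2 fold change of 1.49 (SE 0.33, adjusted p = 0.0277 by edgeR), which was 1.13 without control 1 and 2.06 without control 2. The read-through gene GCOM1 shares 3872 of its 4307 exonic bases on the same strand, so reads of these genes cannot be told apart. GCOM1 itself was listed at 31.6, 40.4 and 33.1 CPM in the knockdown libraries, against 21.8 and 26.3 CPM in the controls.

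The platform of polymerase II gave no call. POLR2C had 107, 99.2 and 107 CPM in the knockdown libraries, against 20.8 and 66.3 CPM in controls 1 and 2, with no overlap between groups and a log2 fold change of 1.25 (SE 0.45, adjusted p = 0.0845 by edgeR). By DESeq2 its adjusted p was 0.0283, and it ran from 0.0283 to 0.128 over the alternatives that kept every library. The log2 fold change was 0.66 without control 1 and 2.32 without control 2. POLR2C shares 52 exonic bases at its 3' end with DOK4 on the opposite strand. DOK4 was listed at 42.8, 37.4 and 36.6 CPM in the knockdown libraries, against 6.61 and 39.1 CPM in controls 1 and 2. The part of shared reads in the POLR2C value was not tested. POLR2J had 215, 196 and 198 CPM in the knockdown libraries, against 148 and 351 CPM in controls 1 and 2, between the controls, with a log2 fold change of -0.30 (SE 0.35, adjusted p = 0.548 by edgeR), which was -0.79 without control 1 and 0.45 without control 2. POLR2J has near-identical copies on the same chromosome, so the split of reads among them is uncertain.

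The copies had few reads, and whether each of them encodes a protein was not examined. POLR2J2 had 4.2, 3.75 and 1.97 CPM in the knockdown libraries, against 3.67 and 2.52 CPM in the controls, with overlapping groups (log2 fold change 0.13, SE 0.49, edgeR adjusted p = 0.864), and UPK3BL shares 1180 of its 1987 exonic bases on the same strand. POLR2J3 had 1.13, 0.804 and 1.11 CPM in the knockdown libraries, against 5.63 and 1.95 CPM in controls 1 and 2. All knockdown libraries were below both controls, and the log2 fold change was -1.82 (SE 0.60, edgeR adjusted p = 0.0701), with -0.93 without control 1 and -2.45 without control 2. POLR2J4 had 4.10, 4.96 and 5.78 CPM in the knockdown libraries, against 9.55 and 10.6 CPM in the controls. The groups did not overlap, and the log2 fold change was -1.03 (SE 0.30) with 0.0517 as the adjusted p by edgeR, close to the threshold, and 0.0269 to 0.252 over the alternatives that kept every library. By DESeq2 the adjusted p was 0.0371 for POLR2J3 (0.0371 to 0.249 over these alternatives) and 0.0269 for POLR2J4. UBE2D4, on the opposite strand, shares 657 of the 6511 exonic bases of POLR2J4, but none of the last 500.

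Of the 9 genes of polymerase III only described, 0 were higher in the knockdown and POLR3D was lower. POLR3D encodes a subunit of the dimer that takes part in initiation and termination by polymerase III (chromosome 8, 22245106 to 22251167, plus strand, hg38). It had 40.6, 40.2 and 35.2 CPM in the knockdown libraries, against 99.7 and 72.7 CPM in controls 1 and 2. The groups were well apart, and the level was 2.23-fold lower in the knockdown (log2 fold change -1.15, SE 0.22, edgeR adjusted p = 0.0209), with -0.91 without control 1 and -1.37 without control 2. Its partner gene POLR3E had 26.4, 25.3 and 34.9 CPM in the knockdown libraries, against 24 and 22.7 CPM in the controls. Although the groups did not overlap, knockdown 2 was close to control 1 and the log2 fold change of 0.31 (SE 0.24) was not called (edgeR adjusted p = 0.369).

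The largest subunit gene of polymerase III, POLR3A, had 29, 24.5 and 29.6 CPM in the knockdown libraries, against 39.2 and 42.3 CPM in the controls. Every knockdown library was below both controls, with a log2 fold change of -0.56 (SE 0.20), for which edgeR gave an adjusted p of 0.0894, which was 0.0484 with GC offsets and 0.0484 to 0.382 over the alternatives that kept every library. POLR3B, the second largest subunit gene, had 15.9 to 18.7 CPM in the knockdown libraries, against 19.1 and 20.6 CPM in the controls (log2 fold change -0.20, edgeR adjusted p = 0.517). The initiation trimer is encoded by POLR3C, POLR3F and either POLR3G or POLR3GL, and none of these genes was called. POLR3C had 23.4 to 32.1 CPM in the knockdown libraries, against 44.8 and 30.6 CPM in controls 1 and 2, and POLR3F had 10.3 to 12.9 CPM in the knockdown libraries, against 2.69 and 12.4 CPM in controls 1 and 2, so that groups overlapped in both genes. POLR3K, which encodes the subunit for RNA cleavage and termination, had 76.2 to 82.1 CPM in the knockdown libraries, against 122 and 80.7 CPM in controls 1 and 2, overlapping at the lower control.

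POLR3G and POLR3GL encode alternative forms of one trimer subunit; POLR3G is known as the form of stem cells and many tumour cells. POLR3G had 18.6, 13.5 and 24.6 CPM in the knockdown libraries, against 25.5 and 21.0 CPM in the controls, and POLR3GL had 35.0, 38.3 and 43.2 CPM in the knockdown libraries, against 39.2 and 36.5 CPM in the controls. The groups overlapped for both forms. The log2 fold change was -0.29 for POLR3G (SE 0.30, edgeR adjusted p = 0.501) and 0.04 for POLR3GL (SE 0.20, edgeR adjusted p = 0.906), and the POLR3GL value changed sign with the scaling, at -0.0043 under RLE factors and -0.12 with GC offsets.

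The 3 polymerases were compared by the counts and the median of their subunits, with no test between them because they share members. Polymerase I only had 0 genes higher and 1 lower of 3 and a median log2 fold change of -0.55. The genes of polymerases I and III had 2 higher of 2 (median 1.73), and those of all 3 enzymes had 2 higher and 1 lower of 5 (median 1.52). Polymerase II only had 2 higher and 1 lower of 11 (median 0.24), and polymerase III only had 0 higher and 1 lower of the 9 described (median -0.29). The complete set of an enzyme was every described gene of the POLR series that it holds. Polymerase I then had 4 genes higher and 2 lower of 10 (median 0.79), polymerase II had 4 higher and 2 lower of 16 (median 0.32) and polymerase III had 4 higher and 2 lower of 16 (median 0.096). ZNRD1, CD3EAP, TWISTNB and CRCP, subunits under other symbols described below, were left out of all these groups. The median of polymerase I only was 0.38 without control 1 and -1.22 without control 2, and that of its complete set was 0.64 without control 1 and 1.21 without control 2. For the genes of all 3 enzymes it was 0.67 without control 1. The median of the complete polymerase II set was 0.61 without control 2, and that of the complete polymerase III set was -0.043 without control 1.

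Summed levels weight the subunits by their abundance. The pair of polymerases I and III summed to 159, 152 and 169 CPM in the knockdown libraries, against 41.4 and 67.4 CPM in the controls, all above both. The 5 genes of all enzymes summed to 993, 962 and 1008 CPM in the knockdown libraries, against 1247 and 1193 CPM in the controls, the opposite direction to their median, with POLR2L the largest part of the sum. Without POLR2L the other 4 summed to 539, 532 and 539 CPM in the knockdown libraries, against 175 and 423 CPM in controls 1 and 2. Genes of polymerase I only summed to 156, 154 and 161 CPM in the knockdown libraries, against 285 and 152 CPM in controls 1 and 2, and overlapped with the controls. Those of polymerase II only summed to 1122, 1107 and 1068 CPM in the knockdown libraries, against 857 and 1196 CPM in controls 1 and 2, and lay between them. The 9 described genes of polymerase III only gave 288, 268 and 307 CPM in the knockdown libraries, against 417 and 340 CPM in the controls, all below both. The 30 subunit genes together took 0.285, 0.286 and 0.284% of counts in the knockdown libraries, against 0.236% and 0.297% in controls 1 and 2.

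**Figure D3:**
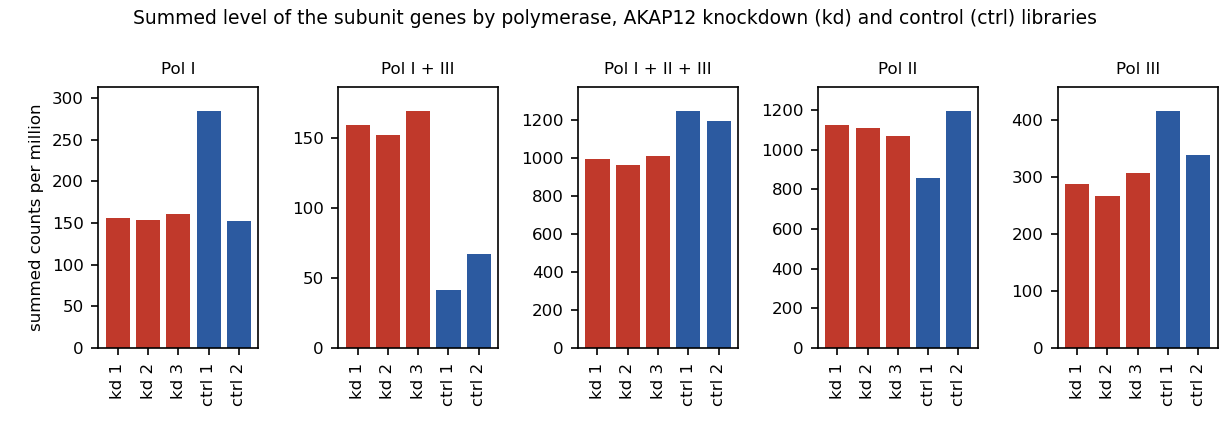
Summed CPM of the subunit genes held by each enzyme or group of enzymes, in the 3 knockdown (red) and 2 control (blue) libraries, each panel with its own axis from 0. The pair of polymerases I and III is at 152 to 169 in the knockdown and at 41.4 and 67.4 in the controls, with every knockdown library above both controls.

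Partners within an enzyme were not always called alike. Of the 5 pairs of neighbouring subunits examined, both partners were called in 2. These were POLR1C and POLR1D, both higher, and POLR1E and CD3EAP, both lower, with the limit for CD3EAP given below. CD3EAP encodes the partner of POLR1E under an older symbol and had 224, 185 and 189 CPM in the knockdown libraries, against 594 and 335 CPM in controls 1 and 2 (log2 fold change -1.22, SE 0.28, edgeR adjusted p = 0.0285), with -0.75 without control 1 and -1.58 without control 2. ERCC1, on the opposite strand, shares 1593 of the 3292 exonic bases of CD3EAP, but none of its last 500. ERCC1 was listed at nearly the same levels, 226, 185 and 193 CPM in the knockdown libraries against 600 and 324 CPM in controls 1 and 2. Reads of these genes cannot be told apart, so whether CD3EAP itself was lower is not known. One partner was called in the polymerase II stalk and in the POLR3D dimer, and neither in the polymerase II platform. The difference between partners was not tested.

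**Figure D4:**
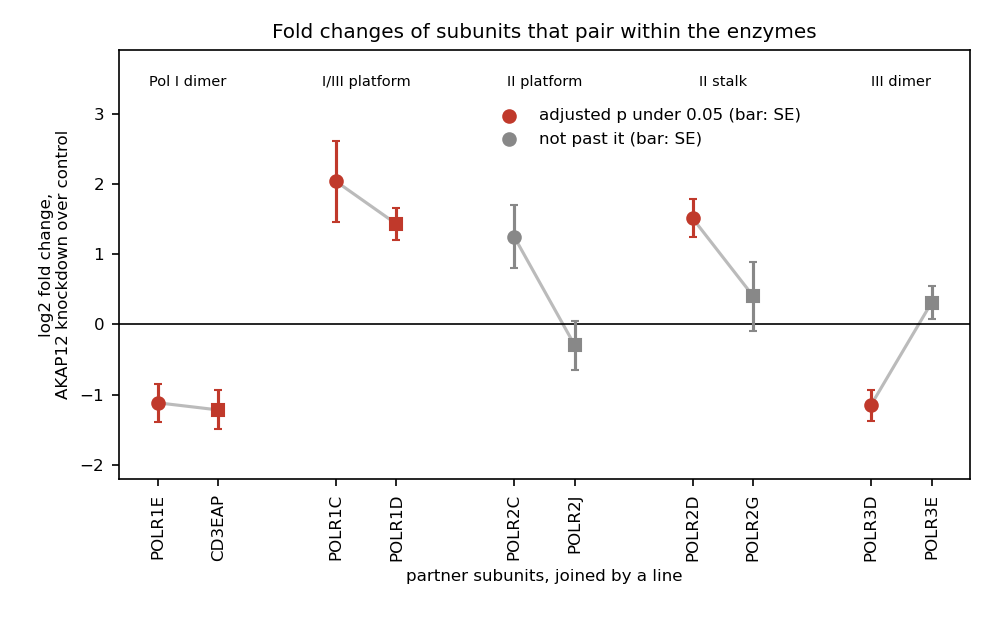
Log2 fold change, knockdown over control, with its standard error for 5 pairs of subunits that lie next to each other in an enzyme, joined by lines (red where the edgeR adjusted p was under 0.05). Both members are red in the pairs POLR1E with CD3EAP and POLR1C with POLR1D. Reads of CD3EAP cannot be told apart from those of ERCC1.

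Other subunits of polymerases I and III carry symbols outside the POLR series. ZNRD1 encodes the subunit for RNA cleavage by polymerase I and had 33.2, 27.7 and 27.2 CPM in the knockdown libraries, against 0.49 and 7.45 CPM in controls 1 and 2. Control 1 held 2 reads of ZNRD1, fewer than the 3 that a count of 0 allows. Both controls lay far below the knockdown (log2 fold change 2.72, SE 0.71, edgeR adjusted p = 0.0385, and 0.0539 under library size scaling). The log2 fold change was 1.98 without control 1 and 5.86 without control 2. TWISTNB, a stalk subunit, had 82.7, 80.0 and 89.4 CPM in the knockdown libraries, against 86.2 and 63.4 CPM in the controls, and overlapped. Its log2 fold change of 0.17 (edgeR adjusted p = 0.578) was 0.41 without control 1, and it turned to -0.042 without control 2 and -0.21 with GC offsets. CRCP, a subunit of polymerase III, had 91.4, 89.2 and 87.7 CPM in the knockdown libraries, against 126 and 125 CPM in the controls. Every knockdown library was below both controls (log2 fold change of -0.49 with an SE of 0.17, adjusted p = 0.0849 by edgeR, and 0.0466 with GC offsets). Among CD3EAP and these 3 genes 1 was therefore higher, 1 lower (CD3EAP, with reads not told apart from those of ERCC1) and 2 not called. Their median was -0.16, and 0.061 under library size scaling. CRCP was added to them after the files were seen.

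Genes for factors that work with each enzyme were counted in the same fit, beside the 22.6% called among all genes. Of 7 polymerase I factors, 2 were higher and 1 was lower, with a median log2 fold change of -0.11 that turned to 0.13 without control 1, 0.25 without control 2 and 0.070 under library size scaling. RRN3, which recruits the enzyme to the promoter, was at 1.02 (SE 0.23, edgeR adjusted p = 0.0275) and TAF1D, of the promoter selectivity factor, at 1.93 (adjusted p = 0.0411), while UBTF, the ribosomal DNA binding factor, was at -0.89 (adjusted p = 0.029). Of 17 general factors of polymerase II tested, 3 were higher and 2 were lower (median 0.31, and -0.13 with GC offsets). GTF2H5 and CDK7, both of TFIIH, were at 2.31 (adjusted p = 0.014) and 1.23 (adjusted p = 0.021), and GTF2F1, the large subunit of TFIIF, and ERCC2, a TFIIH helicase, were at -2.07 (adjusted p = 0.0161) and -1.71 (adjusted p = 0.0416). ERCC2 shares 130 exonic bases at its 3' end with KLC3 on the opposite strand. ERCC2 had 6.76, 6.16 and 6.27 CPM in the knockdown libraries, against 32.3 and 10.4 CPM in controls 1 and 2. KLC3 was listed at 3.69, 2.41 and 3.32 CPM, against 32.8 and 9.18 CPM. Reads over the shared bases were counted for both genes, so whether ERCC2 itself was lower is not known. Without control 1 the log2 fold changes were 1.03 for RRN3, 1.29 for TAF1D, -0.67 for UBTF, 1.95 for GTF2H5, 1.30 for CDK7, -1.47 for GTF2F1 and -0.70 for ERCC2. Without control 2 they were 1.00, 3.21, -1.08, 2.85, 1.16, -2.49 and -2.34 in that order. Of these calls, that of RRN3 was lost with GC offsets (adjusted p = 0.0594), that of TAF1D under library size scaling (0.0591) and with GC offsets (0.0561), and that of ERCC2 by limma-voom (0.0826), under library size scaling (0.0578) and with GC offsets (0.0519). With the replicate number as a block in the fit, only GTF2H5 among these genes kept its call (edgeR adjusted p = 0.0423). The others were then at 0.0564 to 0.203.

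Pausing and elongation factors had 1 gene higher and 5 lower of 21 (median -0.42, and -0.091 without control 2). NELFCD, of the negative elongation factor, was at 1.14 (edgeR adjusted p = 0.0222), whereas SUPT5H, of the pausing and elongation factor DSIF, was at -1.17 (adjusted p = 0.0208), SUPT6H, a histone chaperone of elongating polymerase II, at -1.65 (adjusted p = 0.0238) and SUPT16H, of the chaperone FACT, at -0.84 (adjusted p = 0.0303). NELFE, another gene of the negative elongation factor, was called lower at -0.72 (edgeR adjusted p = 0.0459). That call was lost under library size scaling (0.0934) and with GC offsets (0.0563). NELFA at 1.45 and NELFB at -0.33, of the same factor, were not called (edgeR adjusted p = 0.183 and 0.364). NELFCD was at 1.05 without control 2. NELFE was at -0.51 without control 1 and -0.90 without control 2. The values of SUPT5H, SUPT6H and SUPT16H were -0.89, -0.95 and -0.79 without control 1, and -1.42, -2.13 and -0.89 without control 2. SUPT16H was not called under library size scaling (edgeR adjusted p = 0.060). Of 16 polymerase III factors, 2 were higher and 1 was lower, with a median of -0.16 that was -0.027 without control 2 and 0.014 under library size scaling. The alternative initiation factors of polymerase III went opposite ways: BRF2 was at 2.49 (edgeR adjusted p = 0.0222; 2.08 without control 1 and 3.42 without control 2) and BRF1 at -2.11 (adjusted p = 0.0298; -1.01 without control 1 and -2.74 without control 2). GTF3C2, of TFIIIC, was at 1.36 (adjusted p = 0.0227). BRF2 shares 107 exonic bases at its 3' end with ADGRA2, BRF1 shares exons with BTBD6 and PACS2, and GTF3C2 with GTF3C2-AS1, all on the opposite strand.

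Of 15 factors for the assembly and import of polymerases, 1 was higher and 2 were lower, with a median of -0.11 that turned to 0.11 without control 2 and 0.075 under library size scaling. GPN3, a GTPase for nuclear import of polymerase II, was at 1.25 (edgeR adjusted p = 0.0375), RUVBL1, an ATPase of the assembly chaperone, at -1.35 (adjusted p = 0.0298) and RPAP1, an assembly protein of polymerase II, at -0.75 (adjusted p = 0.044). The values in this order were 0.96, -0.71 and -0.59 without control 1, and 1.68, -1.80 and -0.90 without control 2. With GC offsets GPN3 (edgeR adjusted p = 0.0643) and RPAP1 (0.0574) were no longer called, nor was RPAP1 under library size scaling (0.0974). GPN3 shares 250 of its 1764 exonic bases with FAM216A on the opposite strand, but none of the last 500. FAM216A was also called higher (log2 fold change 1.83, edgeR adjusted p = 0.0279). It was listed at 160, 161 and 168 CPM in the knockdown libraries, against 24.3 and 66.4 CPM in controls 1 and 2. The part of shared reads in the GPN3 value was not tested. Of 4 genes of mitochondrial transcription, which uses a separate polymerase, 3 were higher and 0 lower (median 1.33). These were the transcription factors TFB2M at 3.62 (edgeR adjusted p = 0.0131) and TFAM at 0.80 (adjusted p = 0.0318), and the elongation factor TEFM at 1.87 (adjusted p = 0.0203). TFB2M had 9.62, 6.96 and 9.22 CPM in the knockdown libraries, against 0.49 and 0.80 CPM in controls 1 and 2. Control 1 held 2 reads of TFB2M, fewer than the 3 that a count of 0 allows. The log2 fold change of TFB2M was 3.40 without control 1 and 4.09 without control 2. With GC offsets TFAM was at 0.45 and no longer called (edgeR adjusted p = 0.129). The mitochondrial polymerase gene POLRMT was at -1.26 (adjusted p = 0.0785 by edgeR and 0.0326 by DESeq2), which was -0.26 without control 1 and -1.88 without control 2.

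GC content of the longest transcript moved with the fold change among all genes. The median GC content was 45.6% (35.2 to 60.1%) for the 6 subunit genes higher in the knockdown, 55.6% (49.7 to 60.9%) for the 4 lower, and it was 45.5% for all genes called higher and 55.6% for all called lower. Across genes, which are not independent, Spearman's rho between GC content and log2 fold change was -0.16 over the 30 subunit genes and -0.20 over the 13725 tested genes with a GC value. In 4 bins of equal size, from the lowest to the highest GC content, the median log2 fold change of all tested genes was 0.25, 0.10, -0.034 and -0.29. POLR2H was high in the knockdown at 60.1% GC, close to the 60.1% of POLR2L and the 60.9% of POLR2I, which were low. With GC offsets in the fit, chosen after seeing the data, 5 subunit genes were higher and 6 lower, beside 22.5% of all genes called: POLR1C, at 1.87, was no longer called (adjusted p = 0.0512 by edgeR), and POLR3A and POLR2J4 were.

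**Figure D5:**
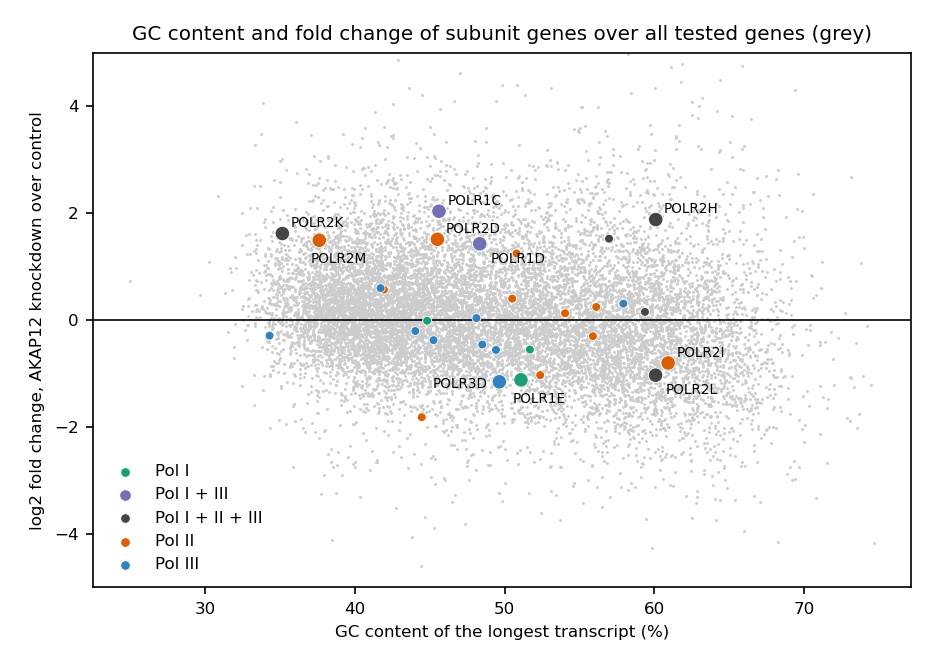
Log2 fold change, knockdown over control, against the GC content of the longest transcript in percent, for all tested genes (grey) and the subunit genes (coloured by enzyme, large and named where called). Called subunit genes lie on both sides of 0 near 60% GC, and 20 tested genes fall outside the plotted range.

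In the authors' deposited table of the comparison, 11 of the 30 subunit genes had an adjusted p under 0.05 (7 higher and 4 lower in the knockdown), beside 25.3% of all genes with an adjusted p there. POLR2C was at 1.25 in the authors' deposited table, with an adjusted p of 0.0291. All 30 fold changes in the authors' deposited table had the sign found here. That table comes from the same libraries, and its direction was read from its correlation with these fold changes. The shared signs are therefore no separate support.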

How the data were processed

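Polyadenylated RNA ends were sequenced in 3 knockdown and 2 control libraries of SW480 cells. The authors deposited a whole-number count of reads for each gene in each library. Per the file headers, featureCounts 1.6.2 counted exons by gene, a read over several genes was counted for every one of them, and strand was not used, so overlapping genes cannot be told apart. STAR 2.7 and hg38 are listed in the submitters' processing notes for the alignment, and nothing read here says whether reads were trimmed or molecular identifiers used. The authors also deposited a table of the comparison, whose columns are, per the file headers, a mean normalized count (a signal), a log2 fold change and its standard error, a test statistic (a score) and p-values. The submitters' processing notes list DESeq2 1.22. The direction of that table was read from its Pearson r of 0.999 with the fold changes fitted here, across 14536 genes.

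Genes were filtered with filterByExpr (minimum count 10), scaled by TMM and compared with the two-sided quasi-likelihood F test (edgeR 4.0.16 in R 4.3.3), adjusted over all tested genes by Benjamini-Hochberg with a threshold of 0.05. Log2 fold changes are knockdown over control, and each SE is the size of the log2 fold change over the square root of its F value. Replicate labels do not name separate cultures, so that every p-value here reflects the spread between these samples alone, which may be technical. A count of 0 allows up to 3 counts (counting error only). Over the library totals, without TMM factors, this is 0.322 to 0.435 CPM in the knockdown libraries and 0.608 and 0.346 CPM in controls 1 and 2. An exact permutation test of a single gene, 3 libraries against 2, cannot go below p = 0.1. No 2 libraries agreed within sampling noise, with a chi-square per degree of freedom of 5.30 to 8.67 between knockdown libraries and 103.9 between the controls.

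Of the 31 subunit genes, 1 is not reported here and was left out of all counts, medians and sums over subunit genes. The subunit genes, their classes and the accompanying gene lists were chosen with earlier results of these data known. Named genes were AKAP12, every called subunit, the POLR2J copies, POLR3G and POLR3GL, the largest subunit of each enzyme, the other subunits by value or range, and up to 4 called genes per accompanying list with the smallest p. POLRMT, CRCP, TWISTNB, NELFA, NELFB and NELFE were named outside this rule. Overlaps were read from the exon coordinates of the count files. GC content was read from the longest transcript of each gene in GENCODE release 29, available for 94.4% of tested genes. Alternatives were DESeq2 1.42.0, limma-voom (limma 3.58.1), RLE factors, scaling by library size alone, no filter on low counts, a stricter filter (5 CPM in 2 libraries), TERT and short RNA genes removed, the replicate number as a block, fits that each left out 1 library and, added after seeing the data, GC offsets (smooth with span 0.2).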

Additional observations from a re-analysis of the deposited data

How the results depend on the processing

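The 10 called subunit genes kept their direction in all 9 settings that kept every library and all 5 that left one out, and 8 of the others changed sign in at least 1. Over DESeq2, limma-voom, RLE factors, library size only, no filter, the stricter filter, removal of TERT and short RNA genes, and GC offsets, 5 to 7 subunit genes were higher and 3 to 6 lower. In these settings 2650 to 4459 of all genes were called, of 11608 to 20897 tested. With 1 library left out, the count of subunit genes ran from 0 to 13 higher and from 0 to 10 lower, and that of all genes from 0 (without any 1 knockdown library, with 3774 to 4109 at an unadjusted p under 0.05) to 8811 (without control 2). Each of these fits holds 4 libraries, and those without a control take their spread from the knockdown libraries alone. The cause of the range was not tested.

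With the replicate number as a block, 0 subunit genes were higher and 0 lower by edgeR, beside 210 of all genes, though 11 subunit genes had an unadjusted p under 0.05. Among the genes named from the accompanying lists, only GTF2H5 was called with this block (edgeR adjusted p = 0.0423). The labels name no common source for libraries of the same number. Deviations of same-numbered libraries from their group means correlated at -0.05 and -0.08. The deviations of 2 controls mirror each other, so these values cannot decide whether the numbers mark a pairing.

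The median of the 30 subunit genes was 0.28 with library size only, -0.044 with GC offsets and 0.0061 to 0.060 with 1 library left out. Polymerase I only gave -0.17 by limma-voom and, with 1 library left out, -1.22 to 0.38. The pair of polymerases I and III gave up to 2.76 (without control 2, from 1.29 without control 1). Polymerase III only gave -0.076 with library size only and -0.59 with GC offsets, settings under which the median of all genes was 0.23 and -0.12. The cause of these shifts was not tested.

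Signs turned for POLR3GL (-0.0027 by DESeq2, -0.0043 by RLE factors, -0.045 with the block, -0.12 with GC offsets, -0.040 to 0.11 with 1 library left out) and POLR1B (0.054 by limma-voom, 0.23 with library size only, 0.026 with no filter, -0.33 to 0.38 with 1 library left out). With 1 library left out, values ran from -0.24 to 1.62 for POLR2G, -0.27 to 0.78 for POLR2E, -1.22 to 0.61 for POLR1A, -0.041 to 2.15 for POLR3F, -0.79 to 0.45 for POLR2J and -0.15 to 0.40 for POLR2J2. At these depths a subunit gene near 1 CPM, such as POLR2J3, rests on few reads.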
